A study of Mus musculus with 8 samples.

Results

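A group of 10 genes of the fibroblast growth factor (FGF) pathway was followed through single-cell transcriptomes of thymic epithelial cells (TEC) from wild-type mice. They were chosen by symbol and comprise the receptors Fgfr1, Fgfr2 and Fgfr3, the ligand Fgf21, the Sprouty inhibitors Spry1, Spry2 and Spry4, the transcription factors Etv4 and Etv5, and the phosphatase Dusp6. All 10 were present among the 27514 genes measured in all 8 libraries. Cortical TEC (cTEC) came from E15.5, E17.5, newborn (NB) and adult thymus and medullary TEC (mTEC) from adult thymus, while the E13.5 library held TEC of either kind. Each adult group had 2 libraries and each younger stage had 1. E13.5 TEC is counted with the cTEC libraries where cortical libraries are named, although it was not sorted for either kind. All mice were C57 B6 (CD45.2), genotype WT, and no treatment is named. The tissue is given as thymus, although 1 label field speaks of bone marrow, and the cells carried the markers of thymic epithelium given further down. Newborn mice were 0 to 2 days old and adult mice 4 to 6 weeks old. Live EpCAM+ CD45- cells were sorted, as total TEC at E13.5, as Ly51+ UEA-1- cells for cTEC and as Ly51- UEA-1+ cells for mTEC. The second data set was made of the E17.5 library with replicate 2 of adult cTEC and of adult mTEC, and the first of the other 5 libraries. mTEC were sampled in adults only, and each library is 1 sample whose number of pooled thymi is not given in the sources used here.

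FGFs bind receptor tyrosine kinases at the cell surface and activate the RAS-MAPK cascade. In the thymus, FGFs made by mesenchyme act on the epithelial form of Fgfr2 and are required for the rudiment to grow. The pathway switches on its own brakes, so that Sprouty proteins, which restrain RAS-MAPK signalling, Dusp6, which removes phosphate from ERK, and the ETS factors Etv4 and Etv5 are widely read as its transcriptional targets. Fgf21 is an endocrine FGF best known as a liver hormone of fasting that needs the co-receptor beta-Klotho (Klb). Aire, a transcriptional regulator of mature mTEC, drives the expression of many tissue-restricted genes in the medulla.

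The stretches just upstream of the start sites of Fgf21, Fgfr2 and Dusp6 are shown first because the account of adult mTEC turns on these 3 genes. They are the 250 bases upstream of the RefSeq start site on GRCm38.p6, the assembly of the mm10 build, written 5′ to 3′ on the gene's own strand, with capitals for 7 motifs searched on both strands. Fgf21 (chr7:45613890-45615490, minus strand) has its upstream stretch at chr7:45615491-45615740, Fgfr2 (chr7:130162451-130266808, minus strand) at chr7:130266809-130267058, and Dusp6 (chr10:99263231-99267489, plus strand) at chr10:99262981-99263230.
Fgf21: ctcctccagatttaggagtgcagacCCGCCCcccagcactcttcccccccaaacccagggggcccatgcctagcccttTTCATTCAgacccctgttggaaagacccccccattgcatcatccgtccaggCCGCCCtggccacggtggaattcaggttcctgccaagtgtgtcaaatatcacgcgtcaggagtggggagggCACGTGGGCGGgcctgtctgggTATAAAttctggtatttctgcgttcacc
Fgfr2: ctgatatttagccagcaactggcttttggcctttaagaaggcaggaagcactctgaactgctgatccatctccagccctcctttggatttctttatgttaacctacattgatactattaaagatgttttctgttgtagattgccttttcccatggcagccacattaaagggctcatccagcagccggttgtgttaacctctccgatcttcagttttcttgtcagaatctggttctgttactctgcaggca
Dusp6: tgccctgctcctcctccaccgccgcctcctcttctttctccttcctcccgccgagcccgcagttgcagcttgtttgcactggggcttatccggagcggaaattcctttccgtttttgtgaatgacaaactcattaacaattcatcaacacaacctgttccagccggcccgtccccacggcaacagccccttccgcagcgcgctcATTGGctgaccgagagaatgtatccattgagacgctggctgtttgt
The motifs were the TATA box (TATAAA), the E box (CACGTG), the Capicua octamer (TGAATGAA), an ETS site (CCGGAAG), an AP-1 site (TGACTCA), the CCAAT box and the GC box (GGGCGG). In Fgf21 the capitals mark TATAAA at position -28 from the start site, CACGTG at -50, which shares its last base with a GGGCGG at -45, the reverse of TGAATGAA at -172, and 2 more reversed GC boxes (CCGCCC) at -121 and -225. The octamer is recognised by Capicua, a repressor that ERK signalling relieves. It was found in 1.08% of the 32851 upstream stretches in the table, TATAAA in 12.4% and CACGTG in 6.02%. Dusp6 held 1 reversed CCAAT at -46, a motif present in 33.8% of all stretches, and Fgfr2 held none of the 7. The ETS motif CCGGAAG, in 6.91% of all stretches, and the AP-1 motif TGACTCA, in 4.46%, were in none of the members' stretches. Upstream stretches were at hand for Fgfr3, Spry1, Spry2 and Etv5 as well, and GGGCGG, present in 32.7% of all stretches, was found for Fgfr3, Spry1 and Etv5 besides Fgf21. A match to these letters is not evidence of binding.

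The remaining members lie at chr8:25518759-25575718 (Fgfr1), chr5:33721724-33737068 (Fgfr3), chr3:37639947-37644599 (Spry1), chr14:105891947-105896819 (Spry2), chr11:101769747-101785310 (Etv4) and chr16:22381313-22439570 (Etv5), with Spry4 on chromosome 18. Fgfr1, Fgfr3, Spry1 and Spry4 overlap annotated genes on the opposite strand. The counts come from tags near the 3′ end of transcripts, so the epithelial and mesenchymal splice forms of Fgfr2 could not be told apart.

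The 8 files held 28334 cells, of which 25428 were kept as epithelial-like, between 490 and 8350 per library. Their median depth was 3952 to 11386 unique molecular identifiers (UMIs) per cell, with the lowest in adult cTEC replicate 1. The cTEC marker Psmb11 was at 239 CPM, a gene's share of a library's UMIs scaled to a common total, in E13.5 TEC, 663 to 1474 in the cTEC libraries, and 3.85 and 8.57 in adult mTEC, where Aire was at 435 and 399. In adult cTEC replicates 1 and 2, 12.04% and 7.85% of the cells joined clusters made mostly of adult mTEC, against at most 0.0291% of any younger library. The summed level of 16 genes induced by tissue dissociation was 554 to 997 CPM in the 3 fetal libraries and 5435 to 20403 CPM in the newborn and adult ones. Fetal thymi were dispersed with trypsin and newborn and adult thymi with Liberase, so age and dissociation cannot be told apart. At most 1.90% of the barcodes of the smaller library of any pair were shared.

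Fgfr2, the receptor that epithelia use, was read in every library and was highest in fetal TEC. Its level was 89.7 CPM in E13.5 TEC, 121 in E15.5 cTEC, 71.6 in E17.5 cTEC and 64.9 in NB cTEC. Adult cTEC gave 55.2 and 33.2 CPM and adult mTEC 26.7 and 11.3. The order followed age within the cortical line apart from E13.5, and the mTEC libraries lay below every cortical one. When each cell was thinned to 2000 UMIs, which left between 425 of 490 cells in adult cTEC replicate 1 and all 3432 in NB cTEC, the share of cells with an Fgfr2 UMI was 17.2%, 21.1%, 13.3% and 11.98% from E13.5 to NB. It was 8.47% and 7.66% in adult cTEC and 6.94% and 2.48% in adult mTEC, with exact binomial intervals that overlap between the first 3 of these 4. Without thinning, the shares were 57.4% at E15.5 and 11.3% in adult mTEC replicate 2. As a guide to background, the parathyroid-like cells set aside at E13.5 had an Fgfr2 UMI in 11.3% of cells, against 45.3% of epithelial-like cells, at median depths of 4267 and 7229 UMIs. The thymocyte-like cells of NB cTEC carried Psmb11 at 1648 CPM and give no measure of background.

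Fgfr1, better known from mesenchyme, was low in all libraries. It was at 4.97 CPM in E13.5 TEC, 5.15 and 4.70 in adult cTEC, and between 0.764 and 1.26 in the other 5 libraries. In adult cTEC these levels rest on 11 and 19 UMIs, and a list of 8 mesenchymal markers summed to 514 and 318 CPM there, against 9.81 to 35.3 in the younger cortical libraries and 103 and 70.5 in adult mTEC; its part in the Fgfr1 level was not tested. At E13.5, a cluster of 105 cells led by Hhex and Nkx2-1, genes of the thyroid lineage, held Fgfr1 at 32.8 CPM, or 22 of the 72 UMIs, and was kept among the epithelial-like cells. Fgfr3 was at 1.24 CPM in E13.5 TEC from 18 UMIs and lower in E15.5, E17.5 and NB cTEC, with 4 UMIs at E15.5, 0 UMIs among the 89998087 of E17.5 cTEC, which allows up to 0.0333 CPM (3 counts), and 2 UMIs in NB cTEC. It reached 3.01 and 2.39 CPM in adult mTEC, and 4.21 and 0.990 in adult cTEC from 9 and 4 UMIs. All 9 Fgfr3 UMIs of adult cTEC replicate 1 came from its 59 cells in mTEC clusters.

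Fgf21 separated adult mTEC from every other library. It was at 873 and 531 CPM in adult mTEC and at 10.8 and 5.69 CPM in adult cTEC. The fetal and newborn libraries gave 2.07, 3.06, 8.54 and 11.2 CPM from E13.5 to NB. An Fgf21 UMI was found in 68.7% and 69.4% of adult mTEC, in 42.2% and 36.9% after thinning, and in at most 1.95% of thinned cells elsewhere. In the cortical libraries below adult age Aire was at 0.0433 to 1.52 CPM, so Fgf21 was detected there with almost no Aire. Counts in single mTEC reached 221 and 183 UMIs, and cells with 3 or more UMIs held 96.4% and 93.9% of all Fgf21 UMIs in these libraries.

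Among the Sprouty genes, Spry2 had its highest levels in adult cTEC, at 155 and 81.4 CPM, against 31.9, 40.1, 17.7 and 46.5 from E13.5 to NB and 38.9 and 10.8 in adult mTEC. Spry1 was at 15.7, 12.6, 29.1 and 18.2 CPM from E13.5 to NB, 14.0 and 42.1 in adult cTEC, and 5.11 and 4.96 in adult mTEC. The 2 adult cTEC libraries thus stood apart for Spry1, while the mTEC libraries were alike and below every cortical library. Spry4 was between 0.489 and 2.003 CPM throughout, with 2 UMIs in each adult cTEC library.

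Etv4 and Etv5, the ETS factors of the pathway, were both highest at E13.5. Etv4 was at 23.3 CPM at E13.5, 7.02, 7.38 and 4.1998 from E15.5 to NB, 1.40 and 10.1 in adult cTEC and 2.29 and 3.43 in adult mTEC. Etv5 was at 33.4 CPM at E13.5, 10.7, 9.24 and 4.85 from E15.5 to NB, 5.62 and 17.8 in adult cTEC and 1.20 and 1.26 in adult mTEC. For both genes adult cTEC replicate 1 lay below and replicate 2 above the E15.5 and E17.5 libraries, and replicate 1 rests on 3 and 12 UMIs. Dusp6, the ERK phosphatase, was at 54.4, 18.9, 20.8 and 38.6 CPM from E13.5 to NB, 46.3 and 63.1 in adult cTEC and 23.5 and 7.49 in adult mTEC, so its lowest cortical levels were at E15.5 and E17.5.

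**Figure D1:**
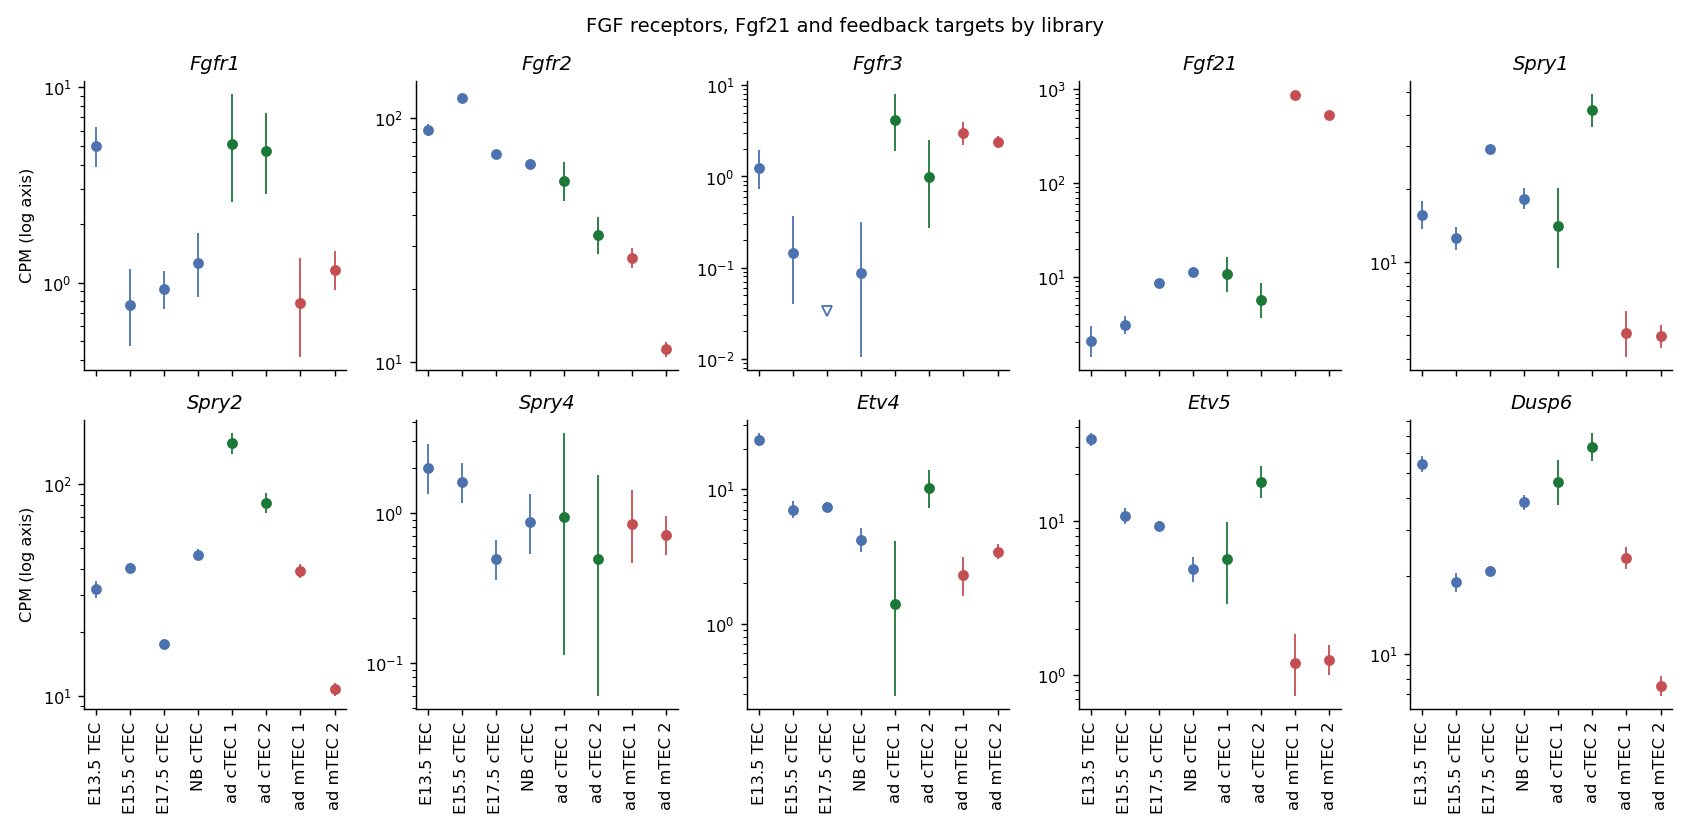
Level of each gene in the 8 libraries, in CPM on a log axis that differs between panels, with points for the epithelial-like cells of a library and bars for exact Poisson intervals (counting error only). Blue marks fetal and newborn libraries, green adult cTEC and red adult mTEC; the open triangle is the limit for 0 Fgfr3 UMIs in E17.5 cTEC. Fgf21 in adult mTEC, at 873 and 531 CPM, stands above all other libraries, and the mTEC libraries are the lowest for Fgfr2, Spry1 and Etv5.

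To ask how the pathway changed with age in the cortical line, a slope over 5 stage ranks was fitted in E13.5 TEC and the 5 cTEC libraries with a term for the data set (edgeR quasi-likelihood test, Benjamini-Hochberg adjustment over all genes). Of 14329 genes tested, 7.36% were called, 4.65% rising with age and 2.7% falling, and none of the 10 members was called. At an unadjusted p under 0.05 there were 4 members and 3894 genes. The largest estimate relative to its error was that of Spry2, at 0.59 ± 0.14 per stage on the log2 scale (SE, n = 6 libraries, adjusted p = 0.0522). Etv4 had -0.64 ± 0.20 (adjusted p = 0.106), Fgfr2 -0.30 ± 0.11 (adjusted p = 0.155) and Fgf21 0.52 ± 0.21 (adjusted p = 0.174). The other 6 had adjusted p from 0.184 (Etv5) to 0.808 (Fgfr1), with Spry1 at 0.07, Dusp6 at 0.13, Fgfr3 at 0.61 and Spry4 at -0.27. DESeq2 called Spry2 (adjusted p = 0.0035) and Etv4 (adjusted p = 0.0322), the fit without a filter on low counts and that without the cortical cells in mTEC clusters called Spry2, and the fit without E13.5 TEC called Fgfr2 at -0.47 (adjusted p = 0.0459) and Dusp6 at 0.53 (adjusted p = 0.0452). DESeq2 called 2688 genes in all, against 1054 in the main fit, so its member calls came from a longer list. Over all 13 alternatives the adjusted p ran from 0.0035 to 0.361 for Spry2, 0.0322 to 0.775 for Etv4, 0.0459 to 0.412 for Fgfr2 and 0.0452 to 0.976 for Dusp6. Without adult cTEC replicate 1 the slope of Spry2 was 0.47 (adjusted p = 0.361), and within the first data set alone it was 0.50.

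The share of cycling cells along the same libraries was 75.6% at E13.5, 29.1%, 14.3% and 11.0% from E15.5 to NB, and 1.43% and 8.41% in adult cTEC. With resting cells only, the slope of Etv4 was -0.10 and that of Etv5 -0.21, against -0.64 and -0.49 with all cells, while that of Spry2 was 0.59 in both. The part of cycling in the slopes was not tested beyond these values. Among 64 other genes of the pathway tested, 5 rose with age and 1, Dusp9, a MAP kinase phosphatase, fell. Those named by their size were the immediate early genes Fos (1.87 ± 0.40), Egr1 (1.56 ± 0.32) and Ier3 (0.98 ± 0.16). Fos was at 73.5, 23.4 and 26.3 CPM in the 3 fetal libraries and 2184 to 4052 CPM in the newborn and adult cTEC libraries. The median slope was 0.10 over the members, 0.04 over the other pathway genes and 0.00057 over all genes.

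Adult cTEC and adult mTEC were compared with 2 libraries each and a term for the data set. Of the 9 members tested, 7 differed at an adjusted p under 0.05, in a comparison where 33.6% of 15623 genes did, 11.6% higher and 21.9% lower in cTEC. The receptors Fgfr1 and Fgfr2 and the targets Spry1, Spry2, Etv5 and Dusp6 were higher in cTEC, and Fgf21 was higher in mTEC. The dissociation genes summed to 20403 and 12010 CPM in adult cTEC and 9935 and 5435 in adult mTEC, and the mesenchymal markers to 514 and 318 against 103 and 70.5, so both lists were higher in cTEC within each data set. Their part in these differences was not tested. The median difference was 1.98 over the members, 0.28 over 65 other pathway genes and -0.14 over all genes, on the log2 scale.

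Fgf21 was 702 ± 242 CPM in adult mTEC and 8.23 ± 3.59 CPM in adult cTEC (SD, n = 2), a difference of -6.51 ± 0.52 in cTEC minus mTEC (log2, SE, adjusted p = 4.6e-33). It was called in all 11 alternative fits, with estimates from -6.99 to -6.21. Etv5 was 11.7 ± 8.63 CPM in cTEC and 1.23 ± 0.0420 in mTEC, a difference of 3.09 ± 0.64 (adjusted p = 1.2e-05). For Spry2 the means were 118 ± 52.3 and 24.9 ± 19.9 CPM and the difference 2.39 ± 0.40 (adjusted p = 4.2e-08). For Spry1 they were 28.1 ± 19.8 and 5.04 ± 0.108 CPM and 2.28 ± 0.45 (adjusted p = 5.3e-06). No library of one lineage overlapped the other for these 4 genes. With 2 libraries each such separation says little, and its share over all genes was not counted.

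Dusp6 averaged 54.7 ± 11.9 CPM in cTEC and 15.504 ± 11.3 in mTEC, with a difference of 1.98 ± 0.43 (adjusted p = 4.3e-05). Fgfr2 averaged 44.2 ± 15.6 and 19.0 ± 10.9 CPM, with a difference of 1.23 ± 0.41 (adjusted p = 0.0106), and Fgfr1 4.93 ± 0.316 and 0.970 ± 0.266 CPM, with 2.26 ± 0.80 (adjusted p = 0.0175). These 3 genes did not overlap between lineages either, under the same limit. Of the 11 alternatives, Etv5 and Spry1 were called in 10, Spry2 and Dusp6 in 7, Fgfr1 in 6 and Fgfr2 in 5. DESeq2 did not call Fgfr2 (adjusted p = 0.095) or Fgfr1 (adjusted p = 0.229), and without adult mTEC replicate 2 Fgfr2 was at 0.64 (adjusted p = 0.567). Etv4, at 0.71 with an interval from -0.67 to 2.08, and Fgfr3, at -0.39 with an interval from -1.98 to 1.21, did not pass the test, and their intervals leave room for differences in either direction. Spry4 lay under the filter on low counts and was not called in the 5 alternatives that tested it (-0.63 to 0.09, with adjusted p from 0.653 to 0.955 in 4 of them and none given by DESeq2).

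Within the first data set, the log2 ratio of cTEC over mTEC (with 1 CPM added) was 1.79 for Fgfr1, 1.02 for Fgfr2, 1.30 for Spry1, 1.97 for Spry2, 1.59 for Etv5 and 0.95 for Dusp6, and in the second 1.40, 1.47, 2.85, 2.80, 3.06 and 2.92. All 6 had the same sign in both. Etv4 was -0.45 and 1.33, Fgfr3 0.38 and -0.77 and Spry4 0.07 and -0.20, so that the sign of these 3 differed between the data sets. How many members were called depended on single libraries: 3 without adult cTEC replicate 1, 1 (Fgf21) without adult cTEC replicate 2, 5 without adult mTEC replicate 1 and 3 without adult mTEC replicate 2, each of these fits having no term for the data set. The same fits called 2874, 2440, 2435 and 1598 genes in all, against 5243 with all 4 libraries, so fewer were called over the whole table as well. The fit with all 4 libraries and no such term called 4 members and 4179 genes.

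The cells of adult cTEC that joined mTEC clusters bore on Dusp6 and Fgfr3. They held 42 of the 99 Dusp6 UMIs of replicate 1 and 75 of the 255 of replicate 2, at 140 and 292 CPM, against 31.1 and 47.6 CPM in the other cells of those libraries. With these cells left out, the difference was 1.49 for Dusp6 (adjusted p = 0.0027), -6.99 for Fgf21 and 3.23 for Etv5, and Fgfr3 was called at -2.999 (adjusted p = 0.0275, against up to 0.956 in the other alternatives), so that 8 of 9 members differed in a fit that called 5974 of 15609 genes.

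Of the 65 other pathway genes tested between the lineages, 14 were higher in cTEC and 9 lower, against 11.6% and 21.9% of all genes. Those named by their size were, among the higher, Fgf14, an intracellular FGF homologue that binds sodium channels (3.87 ± 0.42), the transcription factor Ets1 (2.47 ± 0.45) and the heparan sulphate co-receptor Sdc4 (2.11 ± 0.41). Among the lower they were Dusp4, a MAP kinase phosphatase (-3.03 ± 0.48), the cyclin Ccnd1 (-1.81 ± 0.41) and the GTPase Hras (-1.70 ± 0.41). Fgf14 was at 95.5 to 271 CPM in the cortical libraries and 6.08 and 10.3 CPM in adult mTEC. Dusp4, unlike Dusp6, was at 40.0 and 37.0 CPM in mTEC and 10.3 and 1.98 CPM in adult cTEC. By list, receptors and co-receptors had 4 genes higher and 0 lower of 13 tested, ligands 2 higher and 5 lower of 12, inhibitors 3 and 2 of 10, adaptors and MAPK cascade 2 and 1 of 16, and target transcription factors and early genes 3 and 1 of 14. The co-receptor that Fgf21 needs, Klb, had 2 UMIs in all 8 libraries together, and Kl and Fgfr4 stayed at or below 1.40 and 0.662 CPM.

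Within adult mTEC, Fgf21 was higher in cells with more Aire UMIs in both libraries, although no gene passed the test over the 2 libraries. Each cell was thinned to 5000 UMIs, which kept 1452 cells of replicate 1 and 5047 of replicate 2 and left out 133 and 568 shallower ones. An Fgf21 UMI was then present in 46.3% of the cells with 0 Aire UMIs, 64.3% with 1, 78.9% with 2 or 3, 86.6% with 4 to 7 and 83.7% with 8 or more in replicate 1. In replicate 2 the shares were 43.2%, 52.9%, 64.6%, 76.0% and 79.5%. The share was higher in each successive class up to 4 to 7 Aire UMIs in both libraries, and the exact binomial intervals of the last 2 overlapped in each library. The level went from 243 to 1887 CPM in replicate 1 and from 208 to 1020 CPM in replicate 2.

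**Figure D2:**
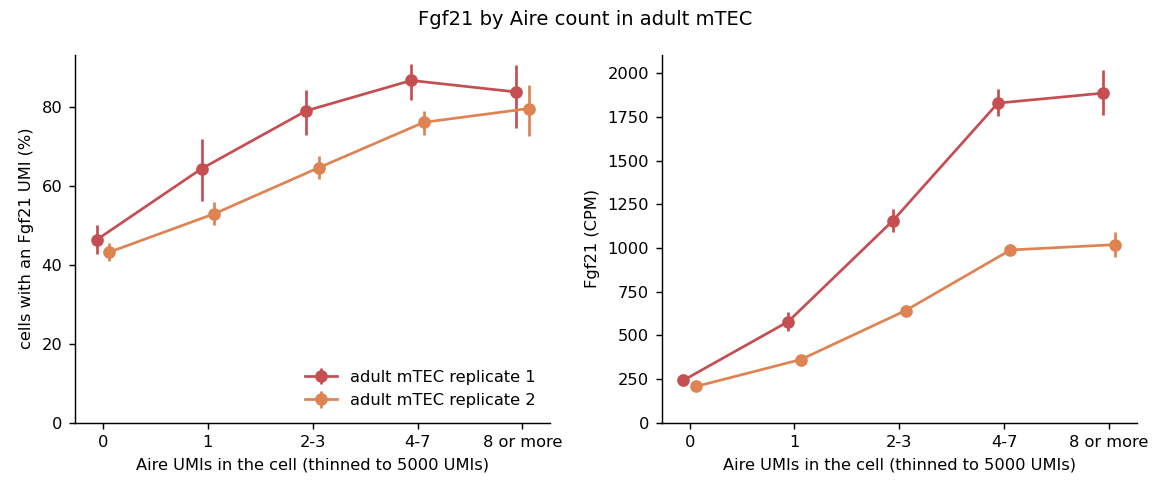
Share of adult mTEC with an Fgf21 UMI (left, in percent, exact binomial bars) and Fgf21 level (right, in CPM, exact Poisson bars) against the number of Aire UMIs, in cells thinned to 5000 UMIs; bars cover counting error only. In both replicates the share goes up from the cells with 0 Aire UMIs, at 46.3% and 43.2%, to those with 4 to 7, at 86.6% and 76.0%.

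The ratio of Fgf21 in Aire-positive cells (1 or more Aire UMIs) over Aire-negative cells was 5.59 (5.20 to 6.002, counting error) in replicate 1 and 3.10 (2.95 to 3.26) in replicate 2. It ran from 4.91 to 6.36 and from 2.57 to 4.14 when the Aire threshold, the thinning depth or its random draw was changed or cycling cells were left out. Over the 2 libraries the edgeR test called 0 of 14759 genes (0%), with 2944 at an unadjusted p under 0.05, so no member passed. The estimates were 2.05 ± 0.24 for Fgf21, -1.88 ± 0.35 for Fgfr2 and -2.32 ± 0.40 for Dusp6 (each adjusted p = 0.232), -1.11 ± 0.38 for Spry1 (adjusted p = 0.247) and 0.44 ± 0.21 for Spry2 (adjusted p = 0.314). Fgfr3 had 0.74, Etv4 0.27 and Etv5 -0.66 (adjusted p = 0.420, 0.758 and 0.560). DESeq2 called 747 genes, among them Fgf21 at 2.03 (adjusted p = 1.8e-05), Dusp6 at -2.38 (adjusted p = 0.0015) and Fgfr2 at -1.93 (adjusted p = 0.0090). None of the 5 edgeR alternatives called a member, with adjusted p up to 0.231 for these 3 genes. Fgfr1 and Spry4 lay under the filter on low counts here.

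Genes were also ranked by how much more of them the cells with an Fgf21 UMI held than the cells without, taking the smaller log2 ratio of the 2 libraries with 10 CPM added. Of 27513 genes, the first 10 included Il9, Crhbp, Gm13539, Tmem158, Thrsp, S100a8, Aire, Hdc and Hebp1, with ratios from 1.11 for Il9 to 0.83 for Hebp1. Aire was at rank 7 with 0.88, and Fezf2, another regulator of tissue-restricted genes, at rank 212. At the other end were Fgfr2 at rank 27049 and Dusp6 at rank 27480, near Ccl21a, the chemokine that marks mTEC I, at rank 27455. In thinned cells without an Fgf21 UMI, Dusp6 was at 61.8 and 14.5 CPM and Fgfr2 at 47.7 and 19.7, against 13.8 and 6.75 and 23.1 and 10.3 in the cells with one.

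Clusters with high Aire and mTEC I-like clusters of adult mTEC stood apart in Fgf21, Fgfr2 and Dusp6, in values that share their cells with the test above. In replicate 1, the 3 clusters with Aire above 200 CPM (783 cells) had Fgf21 at 599 to 1928 CPM, Fgfr2 at 5.23 to 7.55 and Dusp6 at 3.03 to 4.76. The 3 mTEC I-like clusters (609 cells), which carried Ccl21a at 17870 to 22135 CPM, had Fgf21 at 80.6 to 239, Fgfr2 at 64.3 to 87.7 and Dusp6 at 26.6 to 102. In replicate 2, the 4 clusters with Aire above 200 CPM (3827 cells) had Fgf21 at 266 to 1085, Fgfr2 at 2.91 to 9.77 and Dusp6 at 2.18 to 3.81. The 2 mTEC I-like clusters (1034 cells) had 98.0 to 200, 33.5 to 56.3 and 15.8 to 31.9. Neither Fgfr2 nor Dusp6 overlapped between the kinds of cluster in either library, and Fgf21 did not either. The clusters were made from the expression of the same cells, so this is a description. The share of all genes that separate in this way was not counted. The Fgfr2 level of these mTEC I-like cells was within the range of the adult cTEC libraries or above it.

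In replicate 2, the cluster led by Guca2b and the tuft-like cells were low in both Fgf21 and Fgfr2, at 55.7 and 2.93 CPM and at 120 and 5.22 CPM. The mTEC III-like clusters had Fgf21 at 362 and 87.4 and Fgfr2 at 19.6 and 13.1 CPM in replicates 1 and 2, so their Fgfr2 lay between the clusters with high Aire and the mTEC I-like ones. Not every cluster followed Aire. In replicate 2, 100 cells led by Ccl6, Ccl20 and Gp2 had Fgf21 at 584 CPM with Aire at 141, while the cluster led by Klk1b26 had 266 with Aire at 371. In replicate 1, an unnamed cluster of 84 cells, 27.4% of them cycling, had an Fgf21 UMI in 84.5% of cells at 351 CPM with Aire at 44.6. As a guide to free RNA, the tuft-like mTEC IV cells had an Fgf21 UMI in 11.1% (9 cells) and 40.3% (154 cells) of cells, at median depths of 5273 and 7360 UMIs, and 19.7 and 120 CPM. They were not the lowest in replicate 2. The Guca2b cluster there had an Fgf21 UMI in 26.7% of cells at 55.7 CPM, and 23 cells led by Dynlrb2 and Meig1 in 34.8% at 34.5 CPM. In replicate 1 the ratio of Fgf21 to Aire CPM was 9.71 to 16.8 in mTEC I-like clusters and 1.61 to 2.27 in the clusters with Aire above 200. In replicate 2 it was 1.33 to 1.97 and 0.717 to 1.61, so that the ratios overlapped in that library, and the part of free RNA in the Fgf21 of mTEC I-like cells was not tested.

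**Figure D3:**
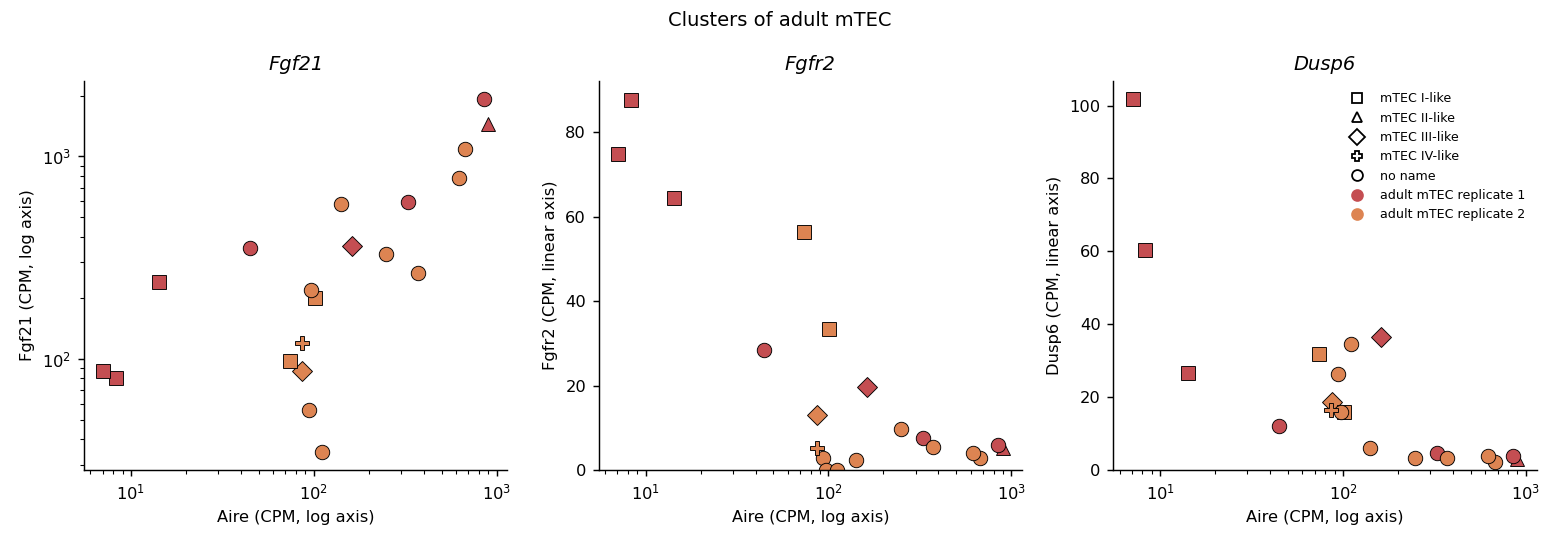
Fgf21, Fgfr2 and Dusp6 levels (CPM; log axis for Fgf21, linear for the others) against Aire level (CPM, log axis), 1 point per cluster of 20 or more adult mTEC, coloured by replicate and shaped by the name the cluster's markers gave it. mTEC I-like clusters (squares) hold Fgfr2 at 33.5 to 87.7 CPM, and clusters with Aire above 200 CPM at 2.91 to 9.77.

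Cycling and resting TEC of the same library were compared next, the former being cells that scored above 0 on lists of S and G2M phase genes. Between 8 and 404 cells per library lay within 0.05 of that threshold. Adult cTEC replicate 1 had 7 cycling cells and was left out, which left 7 libraries. Of 16839 genes 25.3% were called, 8.99% higher and 16.3% lower in cycling cells, and so were 4 of the 10 members. Spry1, Etv4 and Etv5 were higher in cycling cells and Fgf21 was lower. The median difference was 0.08 over the members and -0.16 over all genes.

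Spry1 in cycling over resting cells was 17.4 over 7.80 CPM at E13.5, 18.7 over 9.22 at E15.5, 48.6 over 25.1 at E17.5, 19.4 over 18.1 in NB cTEC, 60.8 over 39.8 in adult cTEC replicate 2 and 6.30 over 4.87 and 6.49 over 4.55 in adult mTEC. It was higher in all 7 libraries, with ratios from 1.07 to 2.23 and a fitted difference of 0.69 ± 0.16 (adjusted p = 0.0050). Etv5 had 0.99 ± 0.21 (adjusted p = 0.0036) and Etv4 1.21 ± 0.38 (adjusted p = 0.0301), each higher in 5 of 7 libraries. Fgf21 was lower in cycling cells in 6 of 7, with -1.11 ± 0.19 (adjusted p = 6.2e-04), at 438 against 963 CPM and 309 against 590 CPM in adult mTEC. In the cycling cells of adult cTEC replicate 2 it had 0 UMIs, which allows a level above the 6.396 CPM of resting ones, so the direction was not measured there. CPM is a share of all UMIs, and the mTEC clusters with 53.98% and 55.5% cycling cells were deep. Their medians were 15648.5 and 16895 UMIs, against 9499 and 11386 in the whole libraries. An Fgf21 UMI was present in 92.9% and 90.3% of their cells, and the part of depth in the lower CPM was not tested. Fgf21 was called in all 9 alternative fits. Etv4 was not called with RLE scaling (adjusted p = 0.0727), with DESeq2 (adjusted p = 0.159) or in the second data set alone (0.53, adjusted p = 0.419), and its adjusted p went down to 3.7e-07 in the other alternatives. Etv5 was not called in the second data set alone (0.77, adjusted p = 0.112). Within either data set alone Spry1 was at 0.68 (adjusted p = 0.0813 and 0.0821). The other 6 members were not called, with estimates from -0.54 for Fgfr3 to 0.61 for Fgfr1 and -0.17 for Fgfr2, -0.24 for Dusp6, 0.02 for Spry2 and 0.15 for Spry4.

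The cortical libraries and mTEC differed in how Etv4, Etv5 and Fgfr1 stood between cycling and resting cells. Besides adult cTEC replicate 2, the cortical libraries used here were fetal or newborn, while the mTEC were adult. Lineage and age therefore cannot be told apart in this difference. Etv4 was 27.4 CPM in cycling against 4.29 in resting cells at E13.5, 13.9 against 3.26 at E15.5, 19.4 against 4.88 at E17.5, 11.3 against 3.13 in NB cTEC and 15.8 against 9.46 in adult cTEC replicate 2. In adult mTEC it was 0.700 against 2.62 and 1.48 against 3.95, from 2 and 21 UMIs in the cycling cells. E13.5 TEC and the 4 cTEC libraries were thus higher in cycling cells, with ratios of 6.37 in the former and 1.67 to 4.27 in the latter, and both mTEC libraries were lower. In adult cTEC replicate 2, the only cortical library of the same age as the mTEC, the cycling level rests on 7 UMIs in 45 cells. Its Poisson interval of 6.34 to 32.5 CPM overlapped that of resting cells, 6.55 to 13.2, so the direction there is not settled. Cycling and resting mTEC lay mostly in different clusters. In replicate 1 the mTEC II-like cluster (0.627% cycling) had Etv4 at 7.43 CPM and the cluster with 53.98% cycling cells had 0, and in replicate 2 the cluster led by Mt4 (2.001% cycling) had 7.89 and that with 55.5% cycling cells 0.931. A few cells, 5 in replicate 1 and 14 in replicate 2, held 42.1% and 30.3% of the Etv4 UMIs. The part of these clusters and cells in the result was not tested.

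A test of that difference, added after these ratios were seen, compared the cycling effect in mTEC with that in the cortical libraries. It called 23.5% of 16839 genes, 16.4% higher and 7.16% lower in mTEC, and 6 of the 10 members. For Etv4 the effect was 1.87 ± 0.19 in cortical libraries and -1.13 ± 0.41 in mTEC, and the difference -2.999 ± 0.43 (adjusted p = 1.5e-04). Etv4 was called in all 9 alternative fits, from -3.93 to -2.71, and in each data set alone. Etv5 differed by -1.34 ± 0.44 (adjusted p = 0.0330), Fgfr1 by -2.29 ± 0.70 (adjusted p = 0.0220) and Spry4 by -3.45 ± 1.03 (adjusted p = 0.0192), each called in 6 of 9 alternatives, with adjusted p of up to 0.141, 0.121 and 0.161. These calls rest on few UMIs in cycling mTEC, with 1 and 16 for Etv5, 0 and 8 for Fgfr1 and 0 and 2 for Spry4 in replicates 1 and 2. Without adult mTEC replicate 2 these 3 were not called (adjusted p = 0.0633, 0.0673 and 0.117). The Fgf21 difference of 0.71 (adjusted p = 0.0392) and the Spry2 difference of 0.55 (adjusted p = 0.0493) were called in 3 and 2 of 9. Dusp6 at -0.81 (adjusted p = 0.132) and Fgfr2 at -0.37 (adjusted p = 0.267) were not called but were in 5 and 4 of 9, while Spry1 at 0.14 and Fgfr3 at 0.44 were called in none. The scaling matters here: RLE moved the median of all genes from 0.12 to -0.22 and the called genes from 2755 higher and 1205 lower to 1224 and 2072. With RLE, Fgf21 (0.37, adjusted p = 0.244) and Spry2 (0.24, adjusted p = 0.315) were not called, and Fgfr2 (-0.68, adjusted p = 0.0104) and Dusp6 (-1.16, adjusted p = 0.0221) were. Relative to the median of all genes, Etv4 was at -3.12 and -3.17 under the 2 scalings, Etv5 at -1.47 and -1.49 and Fgf21 at 0.59 and 0.59. Spry1 went from 0.14 to -0.25 but stayed within 0.034 of that median under both.

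**Figure D4:**
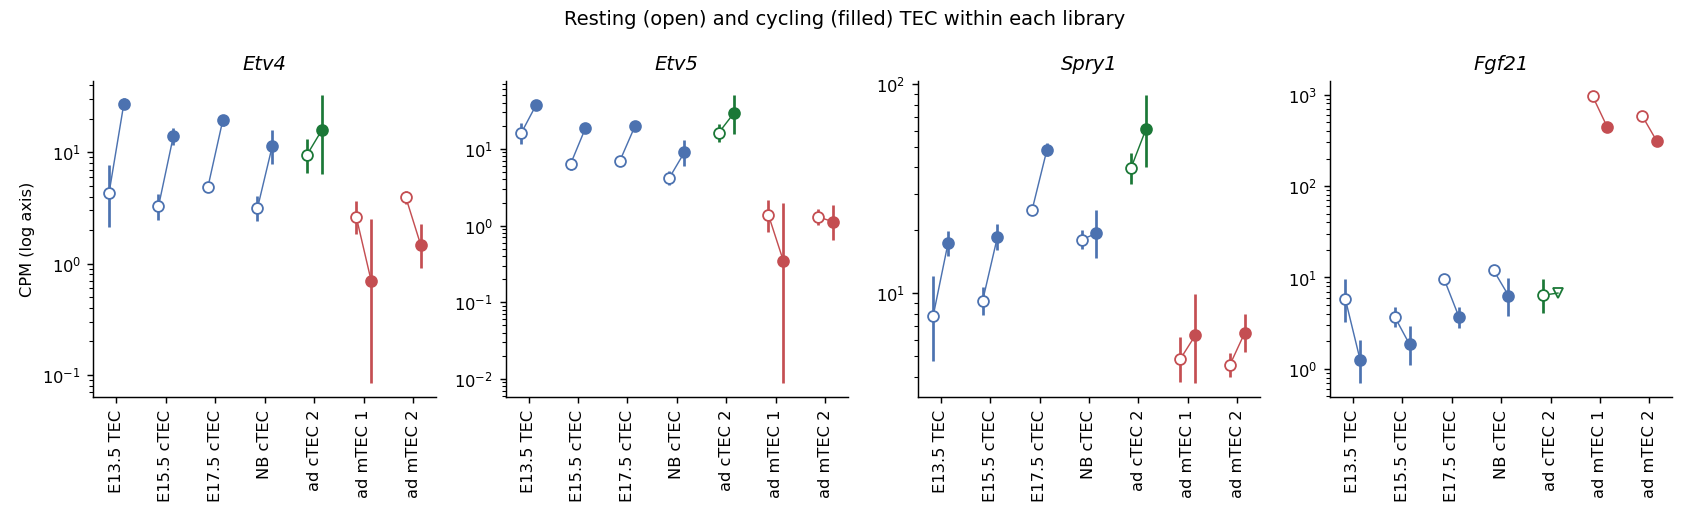
Level of Etv4, Etv5, Spry1 and Fgf21 (CPM, log axes) in resting (open) and cycling (filled) cells of the 7 libraries, joined by a line, with exact Poisson bars; the open triangle is the limit for 0 UMIs. Etv4 is higher in cycling than in resting cells of E13.5 TEC and 4 cTEC libraries and is lower in cycling cells of both adult mTEC libraries, while Fgf21 is lower wherever it was counted in both.

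Among 71 other pathway genes, 3 were higher and 8 lower in cycling cells, where 8.99% and 16.3% of all genes were. Those named by their size were the glypican Gpc3 (1.08 ± 0.14) among the higher, and Fgf14 (-0.97 ± 0.21) and the ETS factors Ets2 (-0.48 ± 0.13) and Elk3 (-0.48 ± 0.17) among the lower. In the comparison of mTEC with cortical libraries, 6 of these 71 were higher and 11 lower, or 3 and 17 with RLE scaling, against 16.4% higher and 7.16% lower of all genes with the main scaling. With RLE the balance of all genes turned as well, to more lower than higher, as given above. Named by size, Ccnd1 (1.31 ± 0.26), Myc (0.99 ± 0.23) and Gpc1 (0.94 ± 0.21) were higher and Fgf13 (-2.26 ± 0.33), Fgf14 (-1.60 ± 0.30) and Gpc4 (-1.27 ± 0.27) lower.

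Fetal cortical clusters spread the ETS factors and Spry1 unevenly beyond cycling. At E17.5, the cycling cluster (991 cells) had Etv4 at 18.0, Etv5 at 20.2 and Spry1 at 48.3 CPM. A cluster led by haemoglobin genes (1616 cells, 9.41% cycling) had 18.4, 21.8 and 59.4 CPM and Dusp6 at 36.2. The 2 clusters that carried Opcml among their leading genes (1675 and 1945 cells) had Etv4 at 1.63 and 1.62, Etv5 at 2.72 and 1.57 and Spry1 at 10.9 and 13.7 CPM. Fgf21 ran the other way, at 14.2 and 12.05 CPM in the Opcml clusters, 3.81 in the cycling cluster and 2.22 in the haemoglobin cluster, while Fgfr2 stayed between 66.4 and 78.9 CPM in all 5 clusters. At E15.5 the Opcml cluster (1354 cells, 1.48% cycling) had 0 Etv4 UMIs, Etv5 at 0.815 and Spry1 at 5.50 CPM. These clusters were made from all genes of the same cells, so their differences are a description. In the same E17.5 cells, thinned to 2000 UMIs, Spry1 was found together with Etv5 in 19 cells where their separate shares give 7.27, with Etv4 in 11 (5.34), with Spry2 in 23 (17.51), with Dusp6 in 20 (16.96), with Fgfr2 in 61 (60.6) and with Fgf21 in 8 (7.60).

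In most libraries a few cells carried Spry2 in large counts. The variance of UMIs per cell over their mean was 1.14 to 3.57 for Spry2 and 1.12 to 1.36 for Fgfr2 across the libraries. Cells with 3 or more Spry2 UMIs held 28.1%, 25.7%, 5.95% and 35.5% of its UMIs from E13.5 to NB, 50% and 42.2% in adult cTEC and 51.8% and 14.8% in adult mTEC. For Fgfr2 such cells held 29.4%, 30.1%, 23.5% and 13.53% from E13.5 to NB and 4.48% to 12.8% in the adult libraries, so the share was higher for Spry2 from NB on and not before. Such a share depends on the mean level and does not show when the uneven spread began. From E13.5 to E17.5 the mean UMIs per cell were 0.70, 0.94 and 0.77 for Fgfr2 and 0.25, 0.31 and 0.19 for Spry2. The variance over the mean was 2.09, 1.75 and 1.14 for Spry2 there, against 1.34, 1.20 and 1.16 for Fgfr2. These cells, 28 to 88 per library, were set against the cells with 0, which numbered 320 to 6975. Of 27513 genes, 3 were more than 1 log2 unit higher in the Spry2-rich cells of all 8 libraries, namely the zinc transporter Slc39a1, the heterochromatin protein Cbx3 and the RNA-binding protein Rbm15, all named after their values were seen.

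Slc39a1 was at 221 CPM in Spry2-rich cells against 38.7 in cells without Spry2 at E13.5, 423 against 46.0 at E15.5, 289 against 52.6 at E17.5 and 582 against 81.3 in NB cTEC. It was at 763 against 133 and 651 against 102 in adult cTEC and 357 against 52.3 and 146 against 34.3 in adult mTEC. The receptor gene Notch2 was at 103 to 402 CPM against 15.8 to 77.5 in the 6 cortical libraries, and at 49.8 against 18.2 and 31.1 against 12.7 in mTEC. None of the other 9 members was above 1 log2 unit in any library (with 10 CPM added), the highest being Fgf21 at 0.97 in adult mTEC replicate 2. Fgfr2 was at 100 against 87.2, 126 against 123, 77.6 against 71.2 and 65.0 against 64.6 CPM from E13.5 to NB, and its log2 ratio was -0.66 to -0.27 in the 4 adult libraries. The rich cells were the deeper ones in every library, at a median of 8822 against 7040 UMIs at E13.5 and 15953 against 10999 in adult mTEC replicate 2, and the part of depth was not tested. In E15.5 and NB cTEC, clusters of 246 and 307 cells had Spry2 and Slc39a1 among their leading genes, with Spry2 at 215 and 250 CPM. Those libraries held 74 and 88 cells with 3 or more Spry2 UMIs, so most cells of these clusters had fewer.

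**Figure D5:**
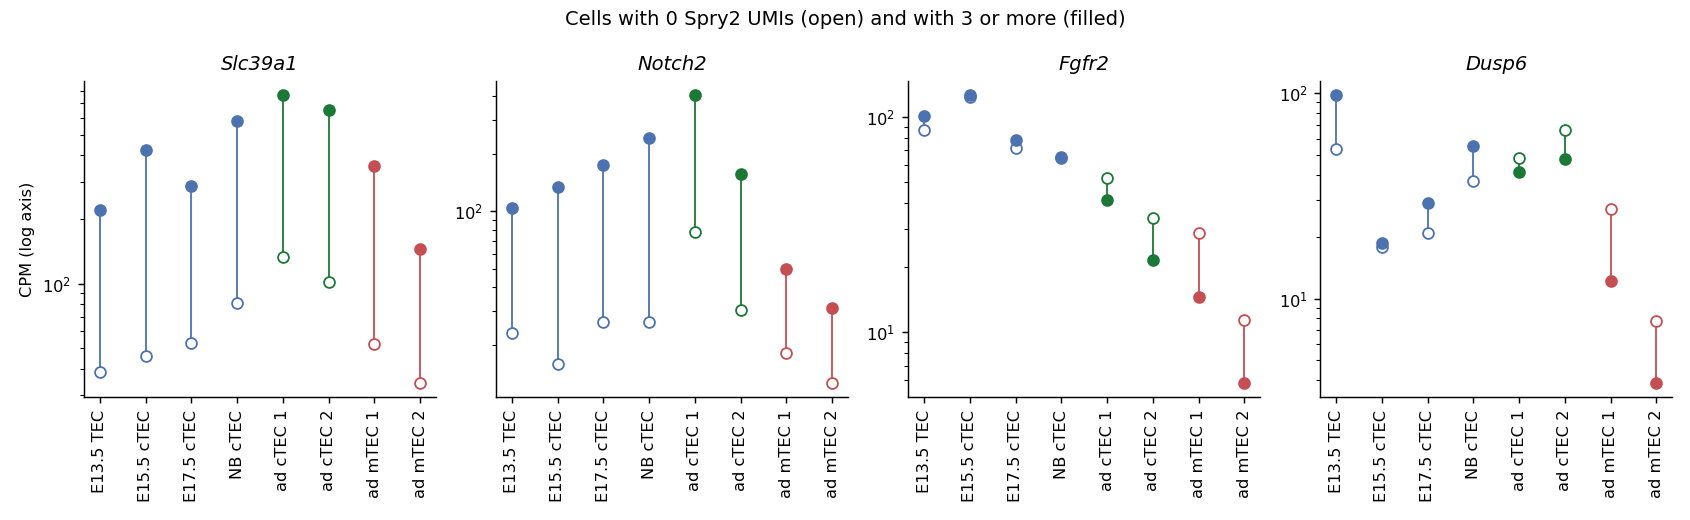
Level of Slc39a1, Notch2, Fgfr2 and Dusp6 (CPM, log axes) in cells with 0 Spry2 UMIs (open) and with 3 or more (filled) in each library. Slc39a1 and Notch2 are higher in the Spry2-rich cells of all 8 libraries, while Fgfr2 and Dusp6 go either way.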

How the data were processed

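Sorted thymic epithelial cells were profiled with the 10x Chromium v2 kit, which counts transcripts near their 3′ end. The deposited matrices hold raw UMI counts per gene and cell, which the authors made on the mm10 build. The submitters' processing notes name bcl2fastq 2.17, Cell Ranger 2.0.1 and STAR 2.5.1b. The gene lists of the first and second data set held 27998 and 31053 genes, so their annotations differed. E17.5 cTEC was the only library below adult age in the second, so its comparison with other stages carries that difference. Cells with at most 5% mitochondrial UMIs and 5000 genes were kept (25750 of 28334), which held 2257967 to 90103548 UMIs per library. The 27514 genes listed for both data sets were clustered with scanpy 1.11.5 (Leiden resolution 0.8), and thymocyte-like and parathyroid-like clusters were set aside, while an E13.5 cluster led by thyroid lineage genes was kept. No doublet caller was run.

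Counts were summed per library, the replicate in all tests, and were fitted with edgeR 4.0.16 (R 4.3.3; filterByExpr, TMM, quasi-likelihood test). Benjamini-Hochberg adjustment ran over all genes with a threshold of 0.05, and an SE is the estimate over the root of F. DESeq2 1.42.0 was an alternative. Where shares were compared, cells were thinned to 2000 UMIs, or 5000 within mTEC. Intervals are exact at 95% and cover counting error only, and a count of 0 allows up to 3. Cycling cells scored above 0 on S and G2M genes against matched genes. Nothing says that libraries of a group came from separate pools of mice, so p-values may measure technical spread.

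The members that passed the filter on low counts were named in every comparison. For 80 other pathway genes, counts were given with the 3 largest called changes in each direction above an average log2 CPM of 3. Some genes that these rules name are not reported here. The members and lists were chosen with earlier results of these data known. Fits were tested on simulated counts. Alternatives changed the scaling, filter, tool, cells, data set or left out a replicate. Those with selected cells, another draw of the thinning and the comparison of the cycling effect between lineages were added after seeing the data.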

Additional observations from a re-analysis of the deposited data

Results flagged for a closer look

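The effect of cycling differed between adult mTEC and the cortical libraries for 6 members in the edgeR quasi-likelihood test of that difference (mTEC minus cortical, log2, each with an adjusted p under 0.05), which called 23.5% of 16839 genes. The differences were -2.999 for Etv4, -1.34 for Etv5, -2.29 for Fgfr1, -3.45 for Spry4, 0.71 for Fgf21 and 0.55 for Spry2. Cycling cells of the cortical libraries were higher than resting ones by 1.87 ± 0.19 (SE) for Etv4, 1.25 ± 0.15 for Etv5 and 1.16 ± 0.32 for Fgfr1, while in adult mTEC the values were -1.13 ± 0.41, -0.10 ± 0.44 and -1.13 ± 0.64. Fgf21 was lower in cycling cells in both, by -1.44 ± 0.18 and -0.73 ± 0.16. Only the Etv4 difference was called in all 9 alternatives. The cortical libraries were fetal or newborn apart from adult cTEC replicate 2, and the mTEC were adult, so lineage and age cannot be told apart. Where this comparison is named the lineage difference in cycling below, the same limit holds. With RLE scaling Fgf21 (0.37, adjusted p = 0.244) and Spry2 (0.24, adjusted p = 0.315) were not called and Fgfr2 (-0.68) and Dusp6 (-1.16) were. In cycling mTEC of replicates 1 and 2, Fgfr1 had 0 and 8 UMIs and Spry4 0 and 2.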

How the results depend on the processing

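Libraries could not be paired by replicate number because the labels give none. The data set, which holds 1 library of each adult group, was a term of the lineage fit, and the library a term of the Aire and cycling fits. Of the counts of called genes, the age trend went from 1054 to 2688 with DESeq2, 410 in data set 1 only, 629 in resting cells only and 16 (without adult cTEC replicate 1) to 437 (without replicate 2) with a library left out. Its members called went from 0 to 1 with no filter and without the cortical cells in mTEC clusters, and to 2 with DESeq2 and without E13.5 TEC. cTEC against mTEC went from 5243 to 2586 with DESeq2 and 1598 to 2874 with a library left out, and its members from 7 to 4 with no term for the data set and 1 to 5 with a library left out. The Aire comparison went from 0 to 747 with DESeq2, with 3 members. Cycling went from 4256 to 1989 in data set 1 only and 1634 in data set 2 only, the latter with 1 member. The lineage difference in cycling went from 3960 to 2382 with DESeq2 (1081 higher, 1301 lower), 1225 and 1221 in data sets 1 and 2 and 1456 to 3928 with a library left out. Its members went from 6 to 3 and 1 in those data sets and 3 to 7 with a library left out.

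Reversals concerned estimates that had not passed the test. With an adult cTEC library left out, the age slope was -0.16 to -0.012 for Fgfr1 and -0.38 to 0.38 for Fgfr3, against 0.90 and 1.89 without E13.5 TEC. With a library left out, cTEC minus mTEC was -1.43 to 0.46 for Fgfr3 and -1.23 to 1.80 for Etv4. The slope was -0.017 for Fgfr1 in data set 1 only and 0.043 for Spry4 in resting cells only. The cycling effect of Spry2 was -0.026 with RLE, -0.0079 with no filter, -0.036 with DESeq2, -0.0072 and -0.00048 in data sets 1 and 2 and -0.054 to 0.026 with a library left out. For Spry4 it was -0.15 with DESeq2 and -0.31 in data set 2. The lineage difference in cycling was -0.54 with DESeq2, -0.94 in data set 1 and -0.87 to 0.59 with a library left out for Fgfr3. For Spry1 it was -0.25 with RLE, -0.24 with DESeq2, -0.25 and -0.21 in data sets 1 and 2 and -0.36 to 0.10 with a library left out. With RLE this followed the median of all genes, which went from 0.12 to -0.22. The cause of the others was not tested. Adult cTEC replicate 1, with 490 cells, limits what low genes such as Etv4, Fgfr3 and Spry4 can show.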

Other observations

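Cells set aside as parathyroid-like at E13.5 (124 cells led by Pth and Chga) differed from the epithelial-like cells in several members. They had Dusp6 at 180 CPM, Etv4 at 68.6, Etv5 at 61.7 and Fgfr1 at 32.6, with Fgfr2 at 24.003. The epithelial-like cells of that library had 54.4, 23.3, 33.4, 4.97 and 89.7. Spry1 was at 20.6 against 15.7 and Spry2 at 24.003 against 31.9, with overlapping Poisson intervals. Within those epithelial-like cells, the cluster led by Krtdap and Krt5 (266 cells) had Etv4 at 4.002 CPM and Fgfr2 at 47.1. These are values of 1 library, without a test.

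Ligands other than Fgf21 were also counted in adult mTEC. Fgf3, Fgf4, Fgf6, Fgf8 and Fgf15, named after their values were seen, had 0 UMIs in both adult cTEC libraries. In those libraries a count of 0 allows up to 1.40 and 0.743 CPM. In the order given, they were at 2.41, 4.87, 2.35, 1.14 and 1.68 CPM in adult mTEC replicate 1 and at 5.30, 1.99, 1.08, 1.35 and 2.90 in replicate 2. Fgf8 in replicate 1 thus lay under the limit of adult cTEC replicate 1.

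In cells thinned to 2000 UMIs, Fgf21 and Dusp6 were counted in the same cell at 0.194 to 0.658 times the number their separate shares give, in the 3 libraries where at least 5 such cells were expected. For Fgf21 and Fgfr2 the median over 4 libraries was 0.605, with 1 of them above 1. These ratios are a description of sparse counts, without a test.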
